A study of Mus musculus with 4 samples.

Results

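Skeletal muscle is built of sarcomeres, in which myosin thick filaments pull on actin thin filaments when calcium binds to troponin. Fast and slow muscle fibres make this machine from different isoforms of the same parts. The ratio of a fast to a slow isoform therefore tells the kind of fibre only where both RNAs come from fibres. Skeletal muscle fibres are not a cell type of white fat. The 40 genes described here are structural, regulatory and calcium-handling genes of the sarcomere and its surroundings, of 19030 genes measured. They comprise 14 isoforms of fast fibres, 9 of slow fibres, 3 that are known from developing muscle or heart, and 14 that fast and slow fibres share. They were chosen by symbol, all 40 were found, and the set was put together with the FPKM values of both genotypes known. The difference between genotypes in these genes is therefore given as a description, with no test.

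Inguinal white adipose tissue (ingWAT), a subcutaneous depot, was taken from C57BL/6 mice, as the labels name the strain, aged 3 months and kept at 4°C. The study's Methods give the floxed line as backcrossed to C57BL/6J and the cold challenge as a milder cold before 4°C, whereas a figure legend gives 4°C alone. Ctrl mice carried *Oct3* flanked by loxP sites and no Cre, and cKO mice carried the same allele with an Adiponectin-Cre transgene, which is active in adipocytes and not in the other cells of the depot. Both genotypes were cold-exposed, so there was no group at room temperature. Each genotype had 2 libraries, and the labels do not say whether these came from separate mice, so that the spread between them may be technical. Expression was given as FPKM, fragments relative to transcript length and to the reads mapped in that library, which allows levels of different genes to be compared per length. *Slc22a3*, the gene that encodes Oct3, was at 16.95 and 17.68 FPKM in Ctrl and at 9.07 and 9.50 FPKM in cKO (adjusted p = 0.000439 by limma, Benjamini-Hochberg). The libraries were estimated to hold between 17400000 and 18150000 mapped reads, so depth differed little between genotypes.

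Of the 40 sarcomere genes, 26 had a Ctrl mean of at least 1 FPKM. The 40 genes had a far lower FPKM sum in cKO than in Ctrl. Their FPKM summed to 2855 in Ctrl replicate 1 and 1949 in Ctrl replicate 2, or 0.583% and 0.403% of all FPKM of the library. In the cKO libraries they summed to 57.7 and 56.7, or 0.0116% and 0.0114%. At the estimated depth this stood for 79446 and 52881 reads in Ctrl against 1276 and 1264 in cKO. In 33 of the 40 genes the cKO values were both under the lower Ctrl value (29.9% of all genes did so), in 2 they were both over the higher Ctrl value (*Myl3* and *Tnnt1*, 26.1% of all genes), and in 5 they overlapped (*Myh3*, *Myh7*, *Myl2*, *Tnnc1* and *Tnni1*). With limma, 23 of the 25 members that passed the filter of a mean FPKM of 1 were called lower in cKO (13.8% of the 12658 genes tested were) 1 was called higher (*Myl3*, 12% of genes were) and *Tnnc1* was not called. These calls come from the values by which the set was chosen, and nothing is read from their number. A member whose cKO level was near 0 passed the filter through Ctrl alone, and 15 members did not pass. The median log2 fold change on log2(FPKM + 1) was -4.16 over the 25 members and -0.01 over all genes tested. In whole tissue, fewer muscle cells and less RNA per muscle cell cannot be told apart.

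**Figure D1:**
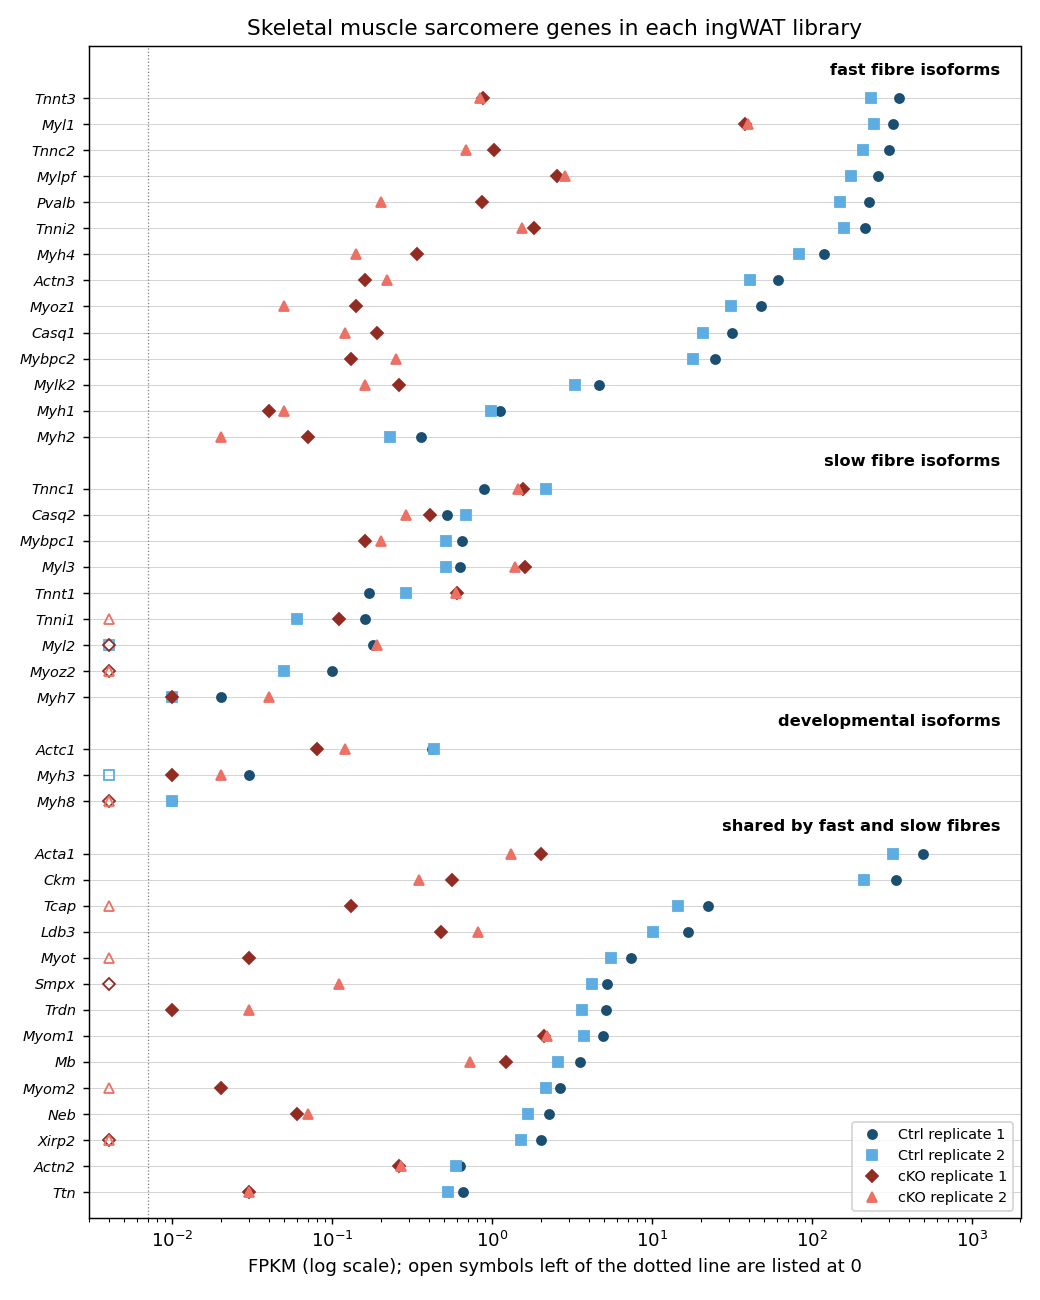
FPKM of the 40 genes in each library (log axis), grouped by fibre type and ordered within a group by the Ctrl mean. Filled symbols are values above 0, and open symbols left of the dotted line are values listed at 0. The fast isoforms and most shared genes lie far to the left in cKO, whereas the slow isoforms lie under 3 FPKM in every library.

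The myosin heavy chain is the motor of the thick filament, and its isoform defines the fibre type. *Myh4*, the motor of the fastest fibres (type IIb), was at 117.51 and 82.15 FPKM in Ctrl and at 0.34 and 0.14 FPKM in cKO. *Myh1*, of type IIx fibres, was at 1.12 and 0.98 FPKM in Ctrl and at 0.04 and 0.05 FPKM in cKO. *Myh2*, of type IIa fibres, was at 0.36 and 0.23 FPKM in Ctrl and at 0.07 and 0.02 FPKM in cKO. All 3 fast motors were lower in both cKO libraries than in both Ctrl libraries, and their order in Ctrl was the same in both libraries. *Myh7*, the motor of slow fibres and of the heart, was at 0.02 and 0.01 FPKM in Ctrl and at 0.01 and 0.04 FPKM in cKO, so the genotypes overlapped. *Myh3*, the embryonic motor, was at 0.03 and 0 FPKM in Ctrl and at 0.01 and 0.02 FPKM in cKO. *Myh8*, the perinatal motor, was at 0.01 FPKM in both Ctrl libraries and listed at 0 in both cKO libraries. Values this small stand for very few reads, since the smallest step of the table is 0.01 FPKM, and no order is read from them.

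*Myh4* thus made up 98.7% and 98.5% of the FPKM of the 6 myosin heavy chains in the Ctrl libraries. In cKO it made up 72.3% and 51.9%, of a sum of only 0.47 and 0.27 FPKM. At the estimated depth *Myh4* had 35.4 and 14.7 reads in cKO, *Myh1* 4.11 and 5.18, and *Myh2* 7.37 and 2.12, so the shares of the fast motors within cKO rest on few reads. The myosin heavy chain genes are close in sequence, and single-end reads of 50 bases may be split between them. The 3 fast motors lie next to each other on chromosome 11 on the plus strand, with *Myh2* before *Myh1* and *Myh4*, and the 250 bases before each of them are shown because the 3 genes differ by a wide margin in Ctrl and were all lower in cKO. The promoter of *Acta1*, on the minus strand of chromosome 8, is shown beside them as the member with the highest Ctrl level. Capitals mark matches to the E-box CANNTG (the letters that MyoD and its relatives bind), to the MEF2 site and to the CArG box (the site of serum response factor). The sequences are from RefSeq with build GRCm38.p6, are written 5′ to 3′ on the strand of the gene, and end at the base before the annotated start.
Myh2 (chr11:67170777-67171026, plus strand, GRCm38.p6): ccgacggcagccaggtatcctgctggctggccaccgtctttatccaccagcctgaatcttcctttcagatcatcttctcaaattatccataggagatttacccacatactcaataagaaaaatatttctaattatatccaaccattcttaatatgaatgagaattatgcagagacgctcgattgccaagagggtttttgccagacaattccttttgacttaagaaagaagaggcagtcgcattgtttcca
Myh1 (chr11:67199852-67200101, plus strand, GRCm38.p6): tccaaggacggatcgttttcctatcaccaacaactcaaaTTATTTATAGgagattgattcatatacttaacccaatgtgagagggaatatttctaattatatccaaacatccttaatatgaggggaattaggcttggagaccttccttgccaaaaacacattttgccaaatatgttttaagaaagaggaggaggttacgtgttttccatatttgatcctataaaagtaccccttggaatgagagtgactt
Myh4 (chr11:67237562-67237811, plus strand, GRCm38.p6): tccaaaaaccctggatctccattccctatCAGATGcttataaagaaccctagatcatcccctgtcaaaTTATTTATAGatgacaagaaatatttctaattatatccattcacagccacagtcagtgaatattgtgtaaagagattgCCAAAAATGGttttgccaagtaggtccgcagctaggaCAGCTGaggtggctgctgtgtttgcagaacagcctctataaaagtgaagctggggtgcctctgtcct
Acta1 (chr8:123894776-123895025, minus strand, GRCm38.p6): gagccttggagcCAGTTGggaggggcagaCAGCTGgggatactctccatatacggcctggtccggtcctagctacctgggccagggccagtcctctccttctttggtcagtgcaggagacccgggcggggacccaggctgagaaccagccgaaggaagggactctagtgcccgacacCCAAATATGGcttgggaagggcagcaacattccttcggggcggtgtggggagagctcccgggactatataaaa

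Both strands were searched, and each of the marked motifs reads the same way on both. The *Myh4* window held 2 E-boxes, beginning 221 and 67 bases before the start, a MEF2 site at 182 and a CArG box at 104. The *Myh1* window held a MEF2 site at 211 with the same 10 letters as that of *Myh4*, and no E-box or CArG box, and the *Myh2* window held none of the 3 motifs. The *Acta1* window held 2 E-boxes, at 238 and 221, and a CArG box at 73. On the strand of the gene, the letters TATAAA were found at 32 bases before the start of *Myh1*, at 31 before *Myh4* and at 7 before *Acta1*. *Myh4* held a further match on that strand at 213. The reverse-strand matches in *Myh1* and *Myh4* fall inside their MEF2 sites. A RefSeq window was at hand for 30 of the 40 members, with 37 windows because some genes have several starts. An E-box was in 30 of the 37 windows, against 66.2% of all 32851 windows of this length. A MEF2 site was in 8 of 37, against 2.92% of all, a CArG box in 7 of 37, against 1.47%, and TATAAA on either strand in 8 of 37, against 12.4%. A match describes the letters of a window and not a bound site.

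Each myosin head carries an essential and a regulatory light chain. *Myl1*, the essential light chain of fast fibres, was at 319.51 and 241.22 FPKM in Ctrl and at 37.83 and 39.45 FPKM in cKO. *Mylpf*, the fast regulatory light chain, was at 256 and 175.50 FPKM in Ctrl and at 2.55 and 2.84 FPKM in cKO. Both were lower in both cKO libraries, but *Myl1* kept 13.8% of its Ctrl mean and *Mylpf* 1.25%. The level of *Myl1* left in cKO stood for 597 and 628 estimated reads, and *Myl1* alone made up 65.5% and 69.5% of the FPKM of all 40 genes there, against 12.4% in Ctrl replicate 2. Without *Myl1*, the other members summed to 19.9 and 17.3 FPKM in cKO against 2536 and 1707 FPKM in Ctrl. *Myl3*, the essential light chain of slow fibres and of the heart, was at 0.63 and 0.51 FPKM in Ctrl and at 1.6 and 1.38 FPKM in cKO, and was higher in both cKO libraries. *Myl2*, its regulatory partner, was at 0.18 and 0 FPKM in Ctrl and at 0 and 0.19 FPKM in cKO, which is at most about 2 reads in a cKO library. *Mylk2*, the kinase that phosphorylates the regulatory light chain of skeletal muscle, was at 4.65 and 3.30 FPKM in Ctrl and at 0.26 and 0.16 FPKM in cKO.

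Troponin C binds calcium, troponin I holds the thin filament in the inactive state and troponin T ties the complex to tropomyosin. The fast form of troponin C, *Tnnc2*, was at 300.44 and 207.10 FPKM in Ctrl and at 1.03 and 0.68 FPKM in cKO. *Tnni2*, the fast troponin I, was at 213.76 and 157.67 FPKM in Ctrl and at 1.82 and 1.53 FPKM in cKO. *Tnnt3*, the fast troponin T, was at 347.29 and 233.54 FPKM in Ctrl and at 0.87 and 0.84 FPKM in cKO. All 3 fast troponins kept under 1% of the Ctrl mean, from 0.294% for *Tnnt3* to 0.902% for *Tnni2*. The slow forms were low in every library. *Tnnc1*, shared by slow fibres and heart, was at 0.89 and 2.15 FPKM in Ctrl and at 1.55 and 1.45 FPKM in cKO, so the cKO values lay between the Ctrl values. *Tnni1* was at 0.16 and 0.06 FPKM in Ctrl and at 0.11 and 0 FPKM in cKO, and the genotypes overlapped. *Tnnt1* was at 0.17 and 0.29 FPKM in Ctrl and at 0.60 and 0.59 FPKM in cKO, the other member besides *Myl3* that was higher in both cKO libraries, at about 10 estimated reads in each.

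Among the genes of the thin filament and the Z-disc, *Acta1*, the skeletal muscle actin, had the highest Ctrl mean of all members. It was at 493.11 and 321.28 FPKM in Ctrl and at 2 and 1.31 FPKM in cKO. *Actc1*, the cardiac actin that is also made in developing muscle, was at 0.42 and 0.43 FPKM in Ctrl and at 0.08 and 0.12 FPKM in cKO, at most 3.03 estimated reads in a cKO library. Actins are near-identical in sequence, and reads may be split between *Acta1*, *Actc1* and the actins of other cells. *Actn3*, the α-actinin that fast fibres use to anchor thin filaments, was at 61.19 and 40.52 FPKM in Ctrl and at 0.16 and 0.22 FPKM in cKO. *Actn2*, an α-actinin of skeletal fibres and heart, was at 0.63 and 0.59 FPKM in Ctrl and at 0.26 and 0.27 FPKM in cKO, so 43.4% of its Ctrl mean was left. The giant protein nebulin, which runs along the thin filament, is encoded by *Neb*, at 2.25 and 1.67 FPKM in Ctrl and at 0.06 and 0.07 FPKM in cKO. Titin, the spring that spans from Z-disc to M-line, is encoded by *Ttn*, at 0.66 and 0.53 FPKM in Ctrl and at 0.03 FPKM in both cKO libraries. Because its transcript is so long, this low *Ttn* level stood for 47.5 and 48.0 reads in cKO.

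Other filament-associated isoforms followed the fast forms. *Mybpc2*, the fast myosin-binding protein C, was at 24.71 and 17.98 FPKM in Ctrl and at 0.13 and 0.25 FPKM in cKO. Its slow counterpart *Mybpc1* was at 0.65 and 0.51 FPKM in Ctrl and at 0.16 and 0.20 FPKM in cKO. *Myoz1*, a Z-disc protein of fast fibres that binds calcineurin, was at 47.51 and 31.22 FPKM in Ctrl and at 0.14 and 0.05 FPKM in cKO. Its slow counterpart *Myoz2* was at 0.10 and 0.05 FPKM in Ctrl and was listed at 0 in both cKO libraries. For both slow isoforms the cKO libraries lay below the Ctrl libraries, from a Ctrl level under 1 FPKM.

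The members that handle calcium and energy were lower in both cKO libraries, to differing degrees. *Casq1*, the calcium store of the fast sarcoplasmic reticulum, was at 31.46 and 20.76 FPKM in Ctrl and at 0.19 and 0.12 FPKM in cKO. *Casq2*, the store of slow fibres and heart, was at 0.52 and 0.68 FPKM in Ctrl and at 0.41 and 0.29 FPKM in cKO, so 58.3% of its Ctrl mean was left. *Pvalb*, the calcium buffer that lets fast fibres relax, was at 226.54 and 149.80 FPKM in Ctrl and at 0.86 and 0.20 FPKM in cKO. *Ckm*, the muscle creatine kinase, was at 332.74 and 210.07 FPKM in Ctrl and at 0.56 and 0.35 FPKM in cKO, which is 0.168% of its Ctrl mean and the smallest share of any member above 0 in cKO. *Mb*, the oxygen store myoglobin, was at 3.55 and 2.57 FPKM in Ctrl and at 1.21 and 0.72 FPKM in cKO, a share of 31.5%. Myoglobin is richest in slow and type IIa fibres, and in Ctrl its level was far under that of *Ckm* or *Pvalb*. *Xirp2*, a protein of the fibre's ends, was at 2.02 and 1.51 FPKM in Ctrl and was listed at 0 in both cKO libraries. The remaining shared members, *Tcap*, *Myot*, *Ldb3*, *Myom1*, *Myom2*, *Smpx* and *Trdn*, had Ctrl means from 2.39 to 18.4 FPKM and were lower in both cKO libraries. Among them *Myom1*, an M-line protein, stood apart with 49.8% of its Ctrl mean left, at 4.92 and 3.76 FPKM in Ctrl and 2.11 and 2.21 FPKM in cKO.

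Summed by fibre type, the 14 fast isoforms were at 1952 and 1362 FPKM in Ctrl and at 46.3 and 46.6 FPKM in cKO, or at 8.46 and 7.10 FPKM in cKO when *Myl1* was left out. The 9 slow isoforms together were at 3.32 and 4.26 FPKM in Ctrl and at 4.44 and 4.14 FPKM in cKO, so their sums overlapped between genotypes. The 3 developmental isoforms were at 0.46 and 0.44 FPKM in Ctrl and at 0.09 and 0.14 FPKM in cKO. The 14 shared genes were at 899 and 582 FPKM in Ctrl and at 6.90 and 5.91 FPKM in cKO.

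The fast share was then taken within each of 10 pairs of a fast isoform and its counterpart for the same part. The counterpart is a slow isoform in 9 pairs, while *Actn2*, the counterpart of *Actn3*, is not confined to slow fibres and was grouped with the shared genes. In Ctrl the fast isoform was the higher in all 10 pairs in both libraries, with a median share of 99.8% and a lowest share of 96.8%. In cKO the median share was 76.7% and 68.3%, and the fast isoform was the higher in 6 and 7 of the 10 pairs. From which cells the low slow-isoform RNA came was not tested, so the cKO shares are not read as a fibre type. Without the *Actn3* and *Actn2* pair the median share in cKO was 94.3% and 77.8%, with the fast isoform the higher in 6 and 7 of 9 pairs, so the cKO median depended on that pair. The slow isoform was the higher in both libraries for *Tnnc2* and *Tnnc1* (fast share 39.9% and 31.9%) and for *Casq1* and *Casq2* (31.7% and 29.3%). *Actn2* was higher than *Actn3* in both (fast share 38.1% and 44.9%). For *Mybpc2* and *Mybpc1* the share was 44.8% in one cKO library and 55.6% in the other. For *Tnnt3* and *Tnnt1* it was 59.2% and 58.7%. The fast isoform had the larger share by a wide margin for *Myl1* and *Myl3*, at 95.9% and 96.6%. It did so too for *Mylpf* and *Myl2*, at 100% and 93.7%, for *Tnni2* and *Tnni1*, at 94.3% and 100%, and for *Myh4* and *Myh7*, at 97.1% and 77.8%, where the slow form had at most 4.28 estimated reads in a cKO library. For *Myoz1* and *Myoz2* it was 100% only because the slow form was listed at 0, with at most 3.05 estimated reads of the fast form. When FPKM were summed over the pairs first, the fast share in cKO was 90.9%, a sum in which *Myl1* weighed most.

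**Figure D2:**
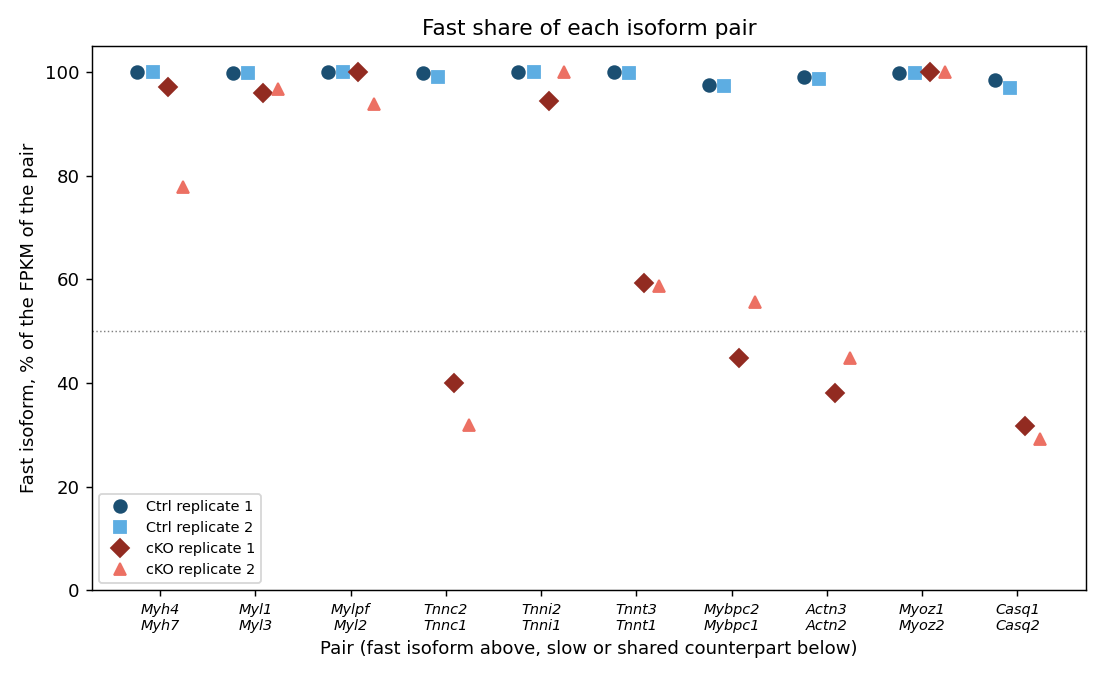
Fast isoform as a percentage of the FPKM of each pair of a fast isoform and its slow counterpart (shared, for *Actn2*), one symbol per library, with a dotted line at equal levels. All Ctrl symbols lie at 96.8% or above, and the cKO symbols spread from 29.3% to 100%.

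The level left in cKO was taken as the cKO mean in percent of the Ctrl mean, for the 26 members with a Ctrl mean of at least 1 FPKM. Its median was 0.526%, with 16 members under 1% and 21 under 5%. Of all 12675 genes with such a Ctrl mean, 64 were under 1% and 89 under 5%, and the median gene stood at 99.1%. The 89 include the 21 members, 13 genes of the other muscle lists described below and 33 genes that are not protein-coding. The members above 10% were *Myl1*, *Mb*, *Myom1* and *Tnnc1*, the last at 98.7%. Below the Ctrl mean of 1 FPKM, *Myl3* and *Tnnt1* had the highest percentages of the members, 261% and 259%. *Xirp2*, with a Ctrl mean of 1.77 FPKM, was listed at 0 in both cKO libraries. *Myh8* and *Myoz2* were too, but had at most 2.08 estimated reads in a Ctrl library. Fewer than 3 estimated reads were found for 13 members in cKO replicate 1 and for 13 in cKO replicate 2, so that percentages of single weak members are uncertain.

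The Ctrl libraries themselves differed. The rule that chose the members names no difference between them, although their values were in view. Members with a Ctrl mean of at least 1 FPKM were lower in Ctrl replicate 2 than in Ctrl replicate 1 in 25 of 26 cases, and the median ratio of replicate 2 to replicate 1 was 0.708, with quartiles at 0.661 and 0.747. *Tnnc1* was the exception, at 2.42. For the 16 members with a Ctrl mean of at least 5 FPKM the ratio kept to a narrow range, from 0.612 for *Ldb3* to 0.755 for *Myl1*. All genes with a Ctrl mean of at least 1 FPKM had a median ratio of 0.997, with quartiles at 0.937 and 1.06. Of 8803 genes with a Ctrl mean of at least 5 FPKM, 79 (0.897%) had a ratio as low as that of *Myl1* or lower. All 16 members are among these 79 by construction, since *Myl1* had their highest ratio. Of 45 genes of the other muscle lists with such a Ctrl mean, 12 were among the 79. This is a comparison of 1 library with 1 library and has no test. In cKO only *Myl1* and *Myom1* had at least 50 estimated reads in both libraries. Each was within 5% between replicates, with ratios of 1.04 and 1.05. Just under that number of reads, *Acta1* had a ratio of 0.655 and *Ttn* of 1, so *Myl1* and *Myom1* do not stand for the other members.

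**Figure D3:**
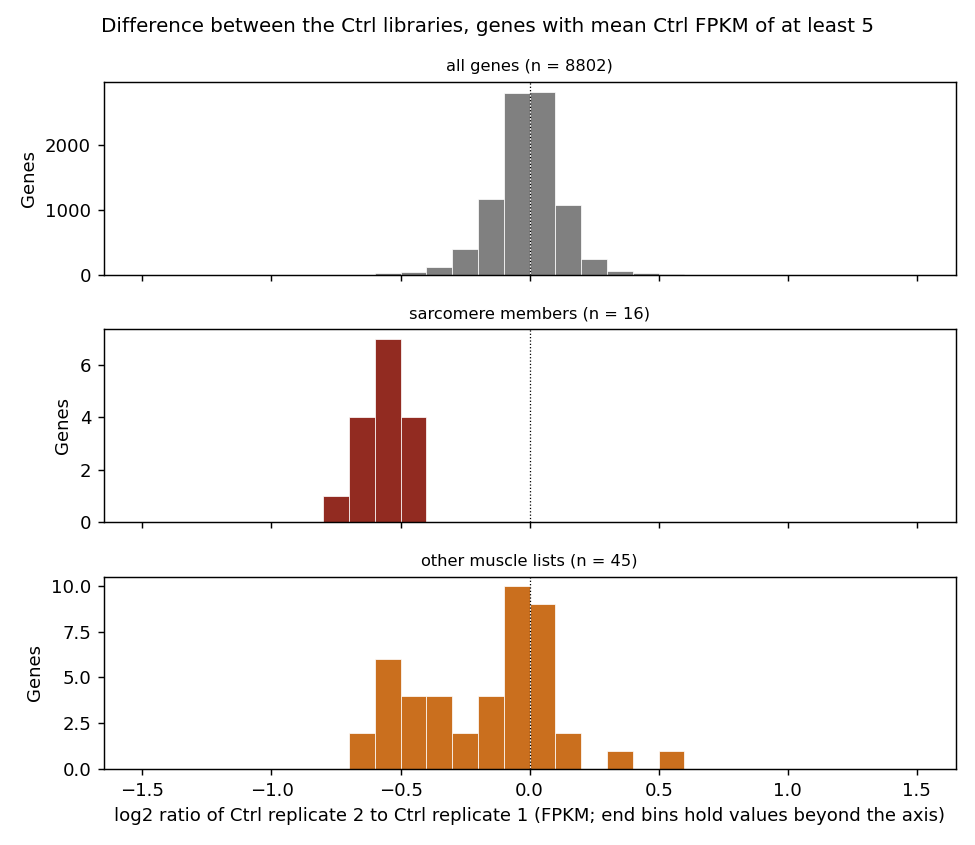
Number of genes by the log2 ratio of Ctrl replicate 2 to Ctrl replicate 1, for genes with a mean Ctrl FPKM of at least 5, in 3 panels: all genes above 0 in both libraries, the sarcomere members, and genes of the other muscle lists. All 16 members lie left of 0, at ratios from 0.612 to 0.755, while all genes centre on 0.

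Genes outside the set that work in the same fibres were taken from lists of known muscle genes, and their differences were tested. These lists were fixed with earlier results of these data known, so the calls are not independent of the contrast. Genes near 0 in cKO passed the filter through Ctrl alone. Over all genes tested, 13.8% were called lower in cKO and 12% higher. Of 18 further sarcomere genes that could be tested, of 38 on the list, 13 were lower in cKO and 1 (*Tpm3*, a tropomyosin of slow fibres and of non-muscle cells) was higher, and 8 were called lower without Ctrl replicate 1. *Tmod4*, which caps thin filaments in skeletal muscle, went from 8.30 and 6.36 FPKM in Ctrl to 0.19 and 0.47 FPKM in cKO (log2 fold change -2.65 ± 0.155, the standard error, adjusted p = 0.000174 by limma with Benjamini-Hochberg adjustment). *Tpm1*, a tropomyosin made in muscle and in other cells, went from 281.22 and 208.84 FPKM to 44.53 and 47.91 FPKM (log2 fold change -2.37 ± 0.128, adjusted p = 0.000141).

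Genes of excitation-contraction coupling carry the signal from the membrane to calcium release. Of 17 tested, 14 were lower and 1 was higher in cKO, against 13.8% and 12% of all genes tested. Without Ctrl replicate 1, 5 were called lower, and without Ctrl replicate 2, 9. *Atp2a1*, the calcium pump of fast fibres, fell from 156.84 and 105.77 FPKM to 0.42 and 0.44 FPKM (log2 fold change -6.50 ± 0.163, adjusted p = 3.58e-06 by limma, Benjamini-Hochberg). *Jsrp1*, a protein of the junction between membrane and reticulum, fell from 6.76 and 4.55 FPKM to 0.05 and 0 FPKM (log2 fold change -2.68 ± 0.168, adjusted p = 0.000211). The gene that was higher was *Atp2a2*, the pump of slow fibres, heart and many other cells, which rose from 38.76 and 42.07 FPKM to 52.40 and 49.22 FPKM (log2 fold change 0.32, adjusted p = 0.0119 by limma, Benjamini-Hochberg). Named here for its pair with *Atp2a1*, it was chosen after its values were seen.

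Muscle energy metabolism was mixed, with 11 of 17 tested genes lower and 3 higher, and 7 lower without Ctrl replicate 1. Over all genes tested, the shares called lower and higher were 13.8% and 12%. *Pygm*, the muscle glycogen phosphorylase, fell from 59.38 and 39.24 FPKM to 1.33 FPKM in both cKO libraries (log2 fold change -4.40 ± 0.169, adjusted p = 2.59e-05 by limma, Benjamini-Hochberg). *Pgam2*, the muscle form of phosphoglycerate mutase, fell from 42.25 and 28.66 FPKM to 1.12 and 2.09 FPKM (log2 fold change -3.81 ± 0.215, adjusted p = 0.000165). The 3 that rose were *Fabp3*, *Fbp2* and *Cox8b*, of which *Fabp3* and *Cox8b* are also known from brown fat, and they too are named after their values were seen.

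In the dystrophin complex and the fibre membrane, 11 of 13 tested genes were lower, against 13.8% of all genes tested. None was higher, against 12%. Most of the 11 fell by less than the genes above. *Sgca*, a sarcoglycan, fell from 2.60 and 1.62 FPKM to 0.13 and 0.10 FPKM (log2 fold change -1.46 ± 0.174, adjusted p = 0.0016 by limma, Benjamini-Hochberg). *Des*, the intermediate filament of all muscle types, fell from 40.86 and 31.26 FPKM to 17.90 and 18.86 FPKM (log2 fold change -0.92 ± 0.116, adjusted p = 0.00196). Without Ctrl replicate 1, 2 of these genes were called lower, and without Ctrl replicate 2, 7.

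Of the 10 listed genes of the neuromuscular junction only 2 could be tested, and limma called 0 of them, with 1 (*Chrnb1*, a subunit of the acetylcholine receptor) at an unadjusted p under 0.05. Among 20 myogenic factors and satellite cell genes only 5 could be tested. *Myorg* fell from 13.59 and 13.56 FPKM to 8.26 and 8.95 FPKM (log2 fold change -0.60, adjusted p = 0.00149 by limma, Benjamini-Hochberg). *Mef2d*, a transcription factor that binds the MEF2 site, rose from 22.99 and 22.65 FPKM to 29.03 and 29.11 FPKM (log2 fold change 0.34, adjusted p = 0.00571 by limma, Benjamini-Hochberg). Without Ctrl replicate 1 the adjusted p of *Mef2d* was 0.0576, and without Ctrl replicate 2 it was 0.0506. Of the 20 genes, 13 had both cKO values under both Ctrl values (29.9% of all genes did so), 1 had both over (26.1%) and 6 overlapped. *Myod1*, *Myf6* and *Mstn*, which adult fibres and their precursors express, were among the 13 and are named after their values were seen. They were between 0.27 and 1.2 FPKM in the Ctrl libraries and listed at 0 in both cKO libraries, and were not tested.

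Contractile genes of other cells moved little. For comparison, 13.8% of all genes tested were called lower and 12% higher. Of 10 smooth muscle genes, *Cald1* was lower (log2 fold change -0.52, adjusted p = 0.00195 by limma, Benjamini-Hochberg), *Acta2* was higher (log2 fold change 0.24, adjusted p = 0.023), and 8 were not called. *Acta2* lost its call when any single library was left out, with adjusted p from 0.0509 to 0.125. Of 12 non-muscle counterparts of the members, such as the cytoplasmic actins and myosins, 2 (*Myh10* and *Ckb*) were lower and 3 (*Actb*, *Actn1* and *Myh9*) were higher, and the count of lower genes was 0 without Ctrl replicate 1 and 1 without any other single library. *Actn1*, the α-actinin of non-muscle cells, rose (log2 fold change 0.42, adjusted p = 0.0188 by limma, Benjamini-Hochberg) and *Myh10*, a non-muscle myosin, fell (log2 fold change -0.39, adjusted p = 0.00929). Both calls were lost without Ctrl replicate 1 and without Ctrl replicate 2. That of *Actn1* was also lost without cKO replicate 2 and with no filter on low values, where *Myh10* kept its call. With a single library left out, the log2 fold change was from 0.28 to 0.55 for *Actn1* and from -0.43 to -0.35 for *Myh10*.

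**Figure D4:**
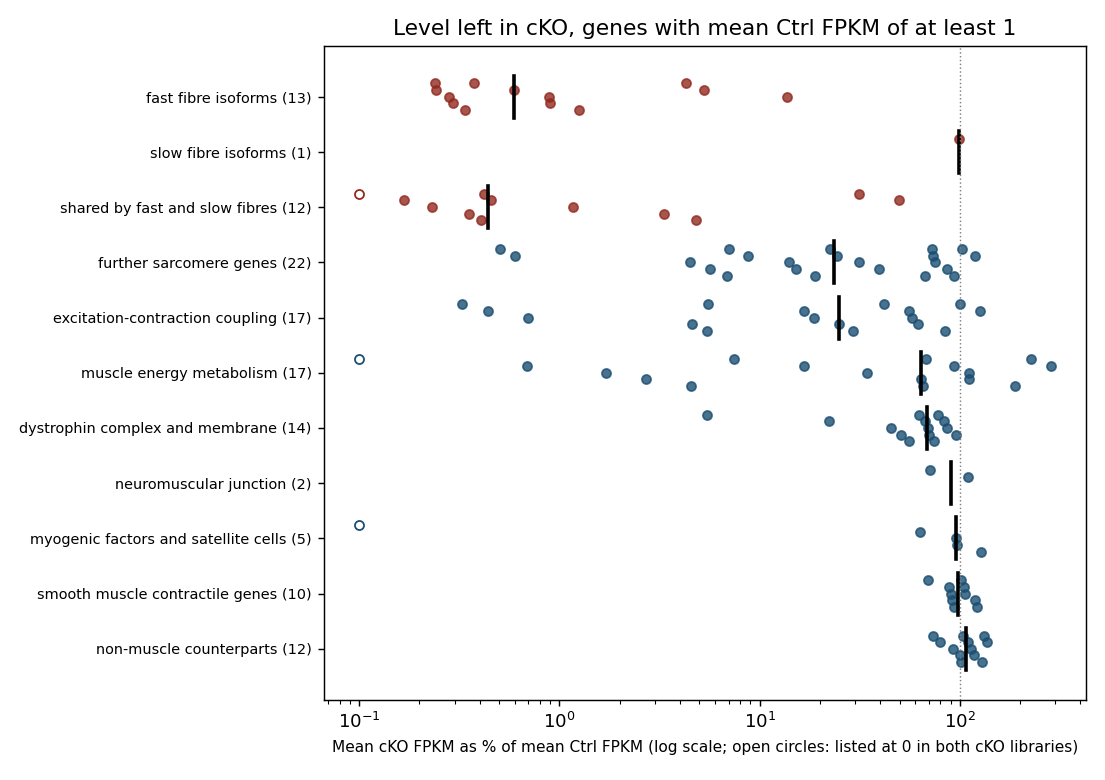
Mean cKO FPKM as a percentage of mean Ctrl FPKM (log axis) for genes with a Ctrl mean of at least 1 FPKM, one dot per gene, with the list median as a black line and the number of genes in parentheses. Members are red and other lists blue, open circles are genes listed at 0 in both cKO libraries, and the dotted line marks equal levels. The fast and shared members lie mostly under 5%, the other muscle lists spread up to 100% and beyond, and smooth muscle and non-muscle genes lie near 100%.

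The other muscle lists showed a similar difference between the Ctrl libraries in genes with under 50% left in cKO, and by median little in the rest. Their 21 genes with under 10% of the Ctrl mean left in cKO had a median ratio of Ctrl replicate 2 to replicate 1 of 0.685, the 16 genes with 10% to 50% left had 0.743, and the 41 genes with more left had 0.971. The 22 members with under 10% left had 0.694. Genes are not independent replicates, and this is a description of these libraries.

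Markers of other cell types were taken from lists of known markers, which were fixed with earlier results of these data known. Those named by their calls were chosen after their values were seen. Over all genes tested, 13.8% were called lower in cKO and 12% higher. Of 5 Schwann cell markers, 4 (*Mbp*, *Sox10*, *Pmp22* and *Prx*) were called lower in cKO and *S100b*, which adipocytes also express, was called higher, none was at 0, and these 5 summed to 216 and 198 FPKM in Ctrl and 111 and 120 FPKM in cKO. All 8 brown and beige adipocyte markers were called higher, with sums of 961 and 1216 FPKM in Ctrl and 3598 and 3069 FPKM in cKO. Of 8 white adipocyte markers 3 (*Adipoq*, *Lep* and *Retn*) were called lower, with sums of 22788 and 23026 FPKM against 18999 and 19178 FPKM. Of 7 B cell markers 6 were called higher, with sums of 233 and 265 FPKM against 362 and 411 FPKM, and of 6 T cell markers 5 (all but *Cd8a*) were called higher, with sums of 81.7 and 85.7 FPKM against 113 and 150 FPKM. The keratinocyte list, with *Trp63* called lower and *Sfn* higher of 5 tested genes and *Krt5*, a defining marker, listed at 0 in 3 of the 4 libraries, summed to 15.2 and 15.7 FPKM in Ctrl and to 15.8 and 16.2 FPKM in cKO. Macrophage markers had 3 of 5 lower (*Csf1r*, *Mrc1* and *Cd163*) and *Cd68* higher, with sums from 140 to 163 FPKM over the 4 libraries, and endothelial markers 2 of 5 lower (*Cdh5* and *Tek*), from 189 to 216 FPKM. Markers of several other cell types thus moved with the genotype, and their part in the levels of the sarcomere genes was not tested.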

How the data were processed

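RNA of ingWAT from Ctrl and cKO mice was sequenced as 50-base single-end reads after selection of polyadenylated RNA, with 2 libraries of each genotype. The authors deposited FPKM values for each gene and library, to the hundredth. The submitters' processing notes name HISAT2 2.0.4, RSEM 1.2.12 and the build mm10. A scaling between libraries is not mentioned, and read counts are not part of the table. For 303 genes of short RNAs, what 1 read is worth in FPKM was used to estimate the depth of each library, with between 85.2% and 91.2% of values whole within 0.1 reads, and the largest error on 3 simulated libraries was 2.67%. Estimated reads of a gene follow from its FPKM, this depth and its transcript length less an offset of 36 bases. The length is the mean over the GENCODE transcripts that match the RefSeq transcripts of the gene.

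Groups were taken from the sample titles. The 40 members and all other gene lists were chosen with earlier results of these data known. Of 205 listed genes, 201 were found. Genes whose mean FPKM over the 4 libraries reached 1 were compared on log2(FPKM + 1), a scale that understates changes of low genes, with limma 3.58.1 in R 4.3.3, using eBayes with a trend, two-sided, and Benjamini-Hochberg adjustment over the 12658 genes tested at a threshold of 0.05. The fit was tested on simulated data. All members of the 10 isoform pairs, 11 further members and the members with the highest and lowest level left in cKO are given by library, and the rest by range. Of each other list the 2 called genes with the largest absolute log2 fold change are named, or all where at most 3 were called, except that some listed genes are not reported here. Motifs were searched in the 250 bases before RefSeq starts. Python 3.11.15, pandas 2.3.3, numpy 2.4.6 and matplotlib 3.10.9 did the remaining steps. Alternatives were another pseudocount, filter, scaling or moderation, an added fold threshold, the replicate number as a block, and each library left out in turn, where a lone library is assumed to vary like the others.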

Additional observations from a re-analysis of the deposited data

How the results depend on the processing

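Of the values of 14 named genes of other lists, recomputed under the alternatives, 156 of 177 kept direction and call, 21 lost the call and 0 changed sign. Called genes numbered 1095 lower and 667 higher with no filter, and 152 and 81 when an absolute log2 fold change of at least 1 was also required, against 1750 and 1519. With one library left out, they ranged from 519 to 1434 lower and from 358 to 1071 higher. With a mean FPKM of at least 5, counts of lower genes fell to 5 (further sarcomere), 3 (excitation-contraction coupling), 6 (energy metabolism) and 7 (dystrophin complex), since fewer genes were tested. With the added fold threshold they were 9 for excitation-contraction coupling, 1 for the dystrophin complex, and 0 for myogenic, smooth muscle and non-muscle genes. With no filter, 6 myogenic genes, 1 non-muscle gene and 1 neuromuscular gene were called lower. The neuromuscular count was also 1 when libraries were scaled to genes outside the muscle lists and without the trend, and the non-muscle count 1 with median-of-ratios scaling and without the trend. With one library left out, counts ranged from 8 to 14 (further sarcomere), 5 to 12 (excitation-contraction coupling), 7 to 11 (energy metabolism), 2 to 9 (dystrophin complex) and 0 to 1 (non-muscle). The cause of these shifts was not tested beyond the smaller number of genes or samples.

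The median log2 fold change of the members, -4.16, was -6.22 with a pseudocount of 0.1, -1.61 with no filter and -5.85 with a mean FPKM of at least 5. The median level left in cKO, 0.526% of Ctrl, was 1.55% after quantile normalization and 0.363% among members with a Ctrl mean of at least 5. The fast share was 99.7% in Ctrl and 90.9% in cKO when isoforms were summed first, against mean medians of 99.8% and 72.5%. Without the *Actn3* and *Actn2* pair, an alternative chosen after seeing the data, it was 99.82% and 86%.

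The labels do not say that equal replicate numbers mark a shared day or litter. Deviations of same-numbered libraries correlated at 0.0148 over 12658 genes with 2 pairs, so the numbers were not used as pairs, and a replicate block gave 1789 genes lower and 1594 higher. With FPKM given to 0.01 and 2 libraries a group, levels of members under 3 estimated reads, including *Myh7*, *Myl2*, *Tnni1* and *Myoz2* in at least 3 of the 4 libraries, carry large counting error, and no order among them is read.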

Other observations

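Of the genes with a Ctrl mean of at least 1 FPKM and under 5% of it left in cKO, 22 protein-coding genes belonged to no list used here, and 33 others were not protein-coding. Those named here were picked without a fixed rule after their values were seen, and do not stand for the rest. None was tested beyond the fit over all genes. *Eef1a2*, the translation elongation factor of muscle and neurons, was at 15 and 10.29 FPKM in Ctrl and at 0.30 and 0.11 FPKM in cKO. *Rpl3l*, a ribosomal protein of striated muscle, was at 7.86 and 4.62 FPKM in Ctrl and at 0.08 and 0.11 FPKM in cKO. *Hfe2*, which encodes hemojuvelin, was at 8.03 and 5.5 FPKM in Ctrl and at 0.09 FPKM in both cKO libraries. *Apobec2*, a muscle member of the cytidine deaminase family, was at 6.54 and 4.53 FPKM in Ctrl and at 0.19 and 0.34 FPKM in cKO. *Fitm1*, a lipid droplet protein of muscle, was at 5.61 and 2.71 FPKM in Ctrl and was listed at 0 in both cKO libraries. *Gm1987* differed from these in that it was at 54.02 FPKM in Ctrl replicate 1 and listed at 0 in Ctrl replicate 2 and in both cKO libraries.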
